A study of Homo sapiens with 2 samples.

Results

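Ceramide is built in the endoplasmic reticulum. Serine palmitoyltransferase condenses serine with palmitoyl-CoA, ceramide synthases attach a second fatty acyl chain to the reduced base, and a desaturase introduces the double bond that turns dihydroceramide into ceramide. Ceramide is then glycosylated or converted to sphingomyelin, and lysosomal enzymes release it again from sphingomyelin and cleave it to sphingosine. Ceramide and sphingosine 1-phosphate are known as lipids with opposite links to cell death and survival, and ceramide synthases differ in the length of the acyl chain they add.

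The genes examined here are 10 of the 24462 gene symbols in the count files, all from this route. They are SPTLC1 and SPTLC2 (serine palmitoyltransferase), CERS2, CERS5 and CERS6 (ceramide synthases), DEGS1 and DEGS2 (dihydroceramide desaturases), UGCG (glucosylceramide synthase), SMPD1 (acid sphingomyelinase) and ASAH1 (acid ceramidase). They were chosen by name with the ratios of these data already known, so their ratios are given as a description. Each sits on 1 row of the files, and all 10 passed the count minimum used below.

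The series asked how silencing ADGRF4, an adhesion G protein-coupled receptor, changes gene expression in A549 cells, an established line from a human lung adenocarcinoma. Its 2 libraries are 1 from A549 cells transfected with ADGRF4 siRNAs and 1 from A549 cells transfected with control siRNAs, both grown in DMEM with serum; the sources used here give no siRNA sequence, dose or time after transfection. Messenger RNA was read from its 3' end with the QuantSeq kit, and the deposited values are whole-number counts per gene symbol. Each group is a single library, so no replicate check, test or p-value is possible, and every difference is one between these libraries.

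The ADGRF4 siRNA library held 9825320 counts and the control siRNA library 10396047. ADGRF4 had 1 count after ADGRF4 siRNA (exact Poisson 95% interval 0.0253 to 5.57) and 3 counts after control siRNA (0.619 to 8.77), so its loss was not detectable at this depth and the labels are not checked by the silenced gene. All 6 epithelial markers were read, with 2 higher by 1.5-fold or more after ADGRF4 siRNA (KRT7 and KRT18), 3 lower (CDH1, EPCAM and KRT8) and 1 between (KRT19). The keratin KRT18 had 79367 counts after ADGRF4 siRNA and 58990 after control siRNA, and the cadherin CDH1 had 239 and 1218, 4.34-fold lower. Among genes known to be high in A549 cells, AKR1B10 (4.86-fold), AKR1C1 (2.93-fold) and ALDH1A1 (2.34-fold) were lower and NQO1 lay between. The leukocyte marker PTPRC had 2 and 7 counts and the endothelial marker PECAM1 1 and 0 in the ADGRF4 siRNA and control siRNA libraries. In the same order SFTPC, a marker of alveolar type 2 cells, had 2 and 0 counts. The fibroblast marker COL1A1 was read in both libraries, with 45 and 50 counts, and lay between. Whether the changes in these markers had a part in the ratios of the sphingolipid genes was not tested. CPM are counts per 1000000 counts, with library sizes scaled by TMM (trimmed mean of M values). Folds are ratios of these CPM, with an exact (Clopper-Pearson) 95% interval in parentheses that covers counting error only, and log2 ratios are log2 of (ADGRF4 siRNA CPM + 1) over (control siRNA CPM + 1).

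By the log2 ratio, ADGRF4 siRNA left 5 of the 10 genes higher by at least 1.5-fold, namely DEGS2, ASAH1, CERS5, SMPD1 and DEGS1. CERS6 and SPTLC1 were at least 1.5-fold lower, and SPTLC2, CERS2 and UGCG lay between. The same limit took in 21.1% of the 11771 compared symbols on the higher side and 22.3% on the lower. At a limit of 2-fold, 4 genes were higher and 1 lower, where 7.84% of compared symbols were higher and 10.4% lower. The median log2 ratio of the 10 genes was 0.36, against -0.016 for all compared symbols. The genes were picked with these ratios known, so nothing is read from the difference between those shares. As a share of library totals without TMM scaling, their summed counts were nearly the same. They came to 4224 counts or 0.0430% after ADGRF4 siRNA and 4443 counts or 0.0427% after control siRNA. The log2 ratios above use TMM-scaled sizes, so these shares are on another scale.

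**Figure D1:**
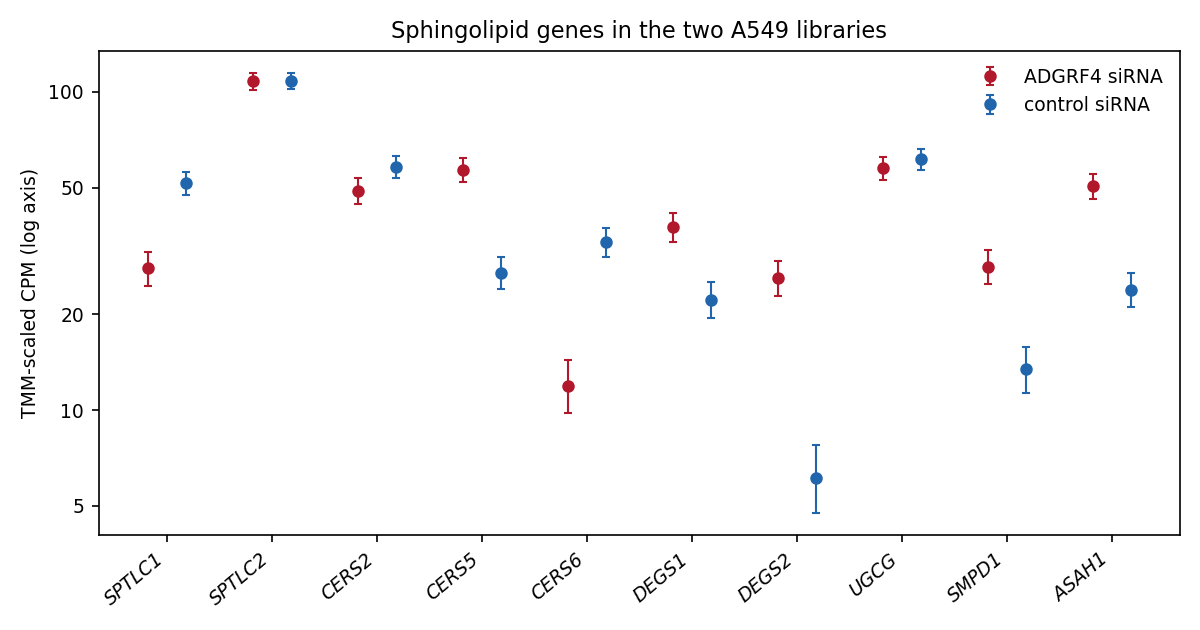
TMM-scaled CPM (log axis) of the 10 sphingolipid genes in the ADGRF4 siRNA library (red) and the control siRNA library (blue), 1 library each, with bars for the exact Poisson 95% interval of the count. The bars of DEGS2, CERS6, CERS5, ASAH1, SMPD1, SPTLC1 and DEGS1 stand clear of each other, those of CERS2 nearly touch, and those of SPTLC2 and UGCG overlap.

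Sequences upstream of the annotated starts are shown because the members went apart within 1 route. Windows of 250 bases before the start were taken from RefSeq (GRCh38.p14) for 8 of the 10 genes. None was searched for ASAH1 or CERS2, so their upstream sequence is not described. In GENCODE 29 other transcripts start further upstream, so exons of the same gene cover all 250 bases of the DEGS2 and CERS6 windows and 164 of the CERS5 window, but 0 of the SPTLC1 window. They were searched on both strands for the GC box (GGGCGG), bound by Sp and KLF factors, the CCAAT box (CCAAT), bound by NF-Y, the E-box (CACGTG) and the cAMP response element (TGACGTCA), with overlapping matches counted. A GC box stood in the first listed window of all 8, against 42.6% of all 35116 RefSeq windows of this length. The higher DEGS2 and SMPD1 had 6 matches each, CERS5 5 and DEGS1 4 (0 in the window of its other start), while the lower CERS6 had 3 and SPTLC1 2. UGCG, which lay between, had 3 and SPTLC2 had 2. A CCAAT box stood in the windows of CERS6 and SPTLC2 (32.0% of all windows), and none of the 8 genes had the E-box (6.34%) or the cAMP response element (1.65%). The SPTLC1 window held 56.4% GC, just under the median of 58% over all windows, and the others held from 68.4% in SPTLC2 to 80.4% at the other DEGS1 start. GC boxes are more likely in sequence rich in GC. A match is a run of letters, not a bound site. Whether GC boxes had a part in the ratios was not tested, and the genes were picked with their ratios known.

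The 30 bases with the most GC box matches are printed for 6 of the 7 genes past 1.5-fold, 5' to 3' on the gene's strand, with GC boxes on either strand in capitals. The higher genes come first.
DEGS2 (chr14:100159725-100159754, minus strand): CCGCCCCGCCCagccagaggtgccCCGCCC
CERS5 (chr12:50167582-50167611, minus strand): aaagaGGGCGGgcccagggCCGCCCgaggc
SMPD1 (chr11:6390313-6390342, plus strand): caGGGCGGgggcagggagaggGGGCGGaat
DEGS1 (chr1:224183157-224183186, plus strand): caggcGGGCGGgccgggggGGGCGGggcct
CERS6 (chr2:168456186-168456215, plus strand): gagccaatcaGGGCGGGCGGcccgagctgc
SPTLC1 (chr9:92115447-92115476, minus strand): agcgctccgCCGCCCCGCCCtctgcggagg
The stretch of DEGS2 alone held 3 matches and the others 2, so short GC box clusters stood upstream of the RefSeq start in genes that were higher and in genes that were lower. Those of DEGS2 and CERS6 lie within annotated exons of these genes.

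For a longer view of 1 gene on each side, the stretch before the start that no annotated exon covers is given for SMPD1 and for SPTLC1, with GC boxes in capitals. That of SMPD1 is 207 bases long and holds 5 matches, and that of SPTLC1 is 250 bases long and holds 2.
SMPD1 (chr11:6390224-6390430, plus strand): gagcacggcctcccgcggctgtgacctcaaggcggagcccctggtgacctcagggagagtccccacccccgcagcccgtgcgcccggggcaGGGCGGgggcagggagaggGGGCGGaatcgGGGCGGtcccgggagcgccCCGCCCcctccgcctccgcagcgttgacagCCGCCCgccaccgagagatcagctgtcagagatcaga
SPTLC1 (chr9:92115414-92115663, minus strand): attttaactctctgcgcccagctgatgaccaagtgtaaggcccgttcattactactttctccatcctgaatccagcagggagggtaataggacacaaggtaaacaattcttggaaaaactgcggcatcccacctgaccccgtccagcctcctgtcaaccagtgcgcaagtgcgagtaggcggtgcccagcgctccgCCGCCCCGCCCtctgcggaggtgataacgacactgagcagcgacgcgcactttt
The SPTLC1 window is the poorest in GC of the 8 genes, at 56.4%.

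The 2 large subunits of serine palmitoyltransferase, the first and rate-limiting enzyme of the route, differed in ratio. SPTLC1, which forms the heterodimer with either partner subunit, had 260 counts (27.9 CPM) after ADGRF4 siRNA and 565 counts (51.6 CPM) after control siRNA, 1.85-fold lower (1.60 to 2.15). SPTLC2, the partner that carries the cofactor-binding lysine, had 1007 counts (107.9 CPM) and 1187 counts (108.4 CPM) in the same order, a ratio of 0.995 (0.914 to 1.08). The SPTLC2 interval held equality with TMM scaling but not with total-count scaling, which gave 0.898 (0.825 to 0.977). The count of SPTLC1 per count of SPTLC2, which needs no scaling between libraries, was 0.258 after ADGRF4 siRNA and 0.476 after control siRNA, lower by a factor of 1.84 (1.55 to 2.19). SPTLC1 has 5 named processed pseudogenes in GENCODE 29 and none of them has a row in the files, so how reads shared with them were counted is unknown.

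The 3 ceramide synthases went in different directions. CERS5, which makes ceramides with palmitoyl chains, had 529 counts (56.7 CPM) after ADGRF4 siRNA and 296 counts (27.0 CPM) after control siRNA, 2.10-fold higher (1.81 to 2.43). CERS6, which also makes palmitoyl ceramide, had 111 counts (11.9 CPM) after ADGRF4 siRNA and 368 counts (33.6 CPM) after control siRNA, 2.83-fold lower (2.28 to 3.53). CERS2, which makes ceramides with very long chains, had 455 counts (48.8 CPM) and 636 counts (58.1 CPM) in that order, 1.19-fold lower (1.05 to 1.35). Its interval leaves out equality, but its ratio lay within 1.5-fold.

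Set against each other within a library, the 2 synthases for palmitoyl ceramide moved furthest apart. The count of CERS5 per count of CERS6 was 4.77 after ADGRF4 siRNA and 0.804 after control siRNA, higher by a factor of 5.93 (4.56 to 7.72). CERS5 took 48.3% (exact binomial 95% interval 45.3 to 51.3) of the 1095 counts of the 3 synthases after ADGRF4 siRNA and 22.8% (20.5 to 25.1) of 1300 after control siRNA. CERS6 took 10.1% (8.41 to 12.1) and 28.3% (25.9 to 30.8), and CERS2 took 41.6% (38.6 to 44.5) and 48.9% (46.2 to 51.7), again ADGRF4 siRNA before control siRNA. These are shares of 3' end counts, not of molecules, because genes differ in how well their 3' ends are read.

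Both dihydroceramide desaturases were higher after ADGRF4 siRNA. DEGS2, which can also hydroxylate dihydroceramide to phytoceramide, had 242 counts (25.9 CPM) after ADGRF4 siRNA and 67 counts (6.12 CPM) after control siRNA, 4.24-fold higher (3.22 to 5.64). Its log2 ratio of 1.92 was exceeded by 9 of the 11771 compared symbols. DEGS1, the widely expressed desaturase, had 350 counts (37.5 CPM) after ADGRF4 siRNA and 243 counts (22.2 CPM) after control siRNA, 1.69-fold higher (1.43 to 2.0). DEGS2 took 40.9% (36.9 to 45.0) of the 592 counts of both desaturases after ADGRF4 siRNA, and 21.6% (17.2 to 26.6) of 310 after control siRNA. The count of DEGS2 per count of DEGS1 was thus higher by a factor of 2.51 (1.81 to 3.50). That factor takes no account of the base composition of the 3' ends, described below. After centring on it, the log2 ratios of DEGS2 and DEGS1 were 1.43 and 1.06, closer together than 1.92 and 0.73 before.

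UGCG, which adds glucose to ceramide as the first step towards most glycosphingolipids, lay within 1.5-fold. It had 536 counts (57.4 CPM) after ADGRF4 siRNA and 673 counts (61.5 CPM) after control siRNA, a ratio of 0.934 (0.832 to 1.05). That interval holds equality, but the one with total-count scaling does not, at 0.843 (0.751 to 0.945).

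The 2 lysosomal hydrolases were both higher by similar factors. SMPD1, which releases ceramide from sphingomyelin, had 263 counts (28.2 CPM) after ADGRF4 siRNA and 147 counts (13.4 CPM) after control siRNA, 2.10-fold higher (1.71 to 2.59). ASAH1, which cleaves ceramide to sphingosine and a fatty acid, had 471 counts (50.5 CPM) after ADGRF4 siRNA and 261 counts (23.8 CPM) after control siRNA, 2.12-fold higher (1.82 to 2.47). With CERS5, these genes lay high among all symbols, with 92.6% of compared symbols below SMPD1, 93.2% below CERS5 and 93.5% below ASAH1. On the other side, 4.49% of symbols lay below CERS6 and 13.2% below SPTLC1.

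**Figure D2:**
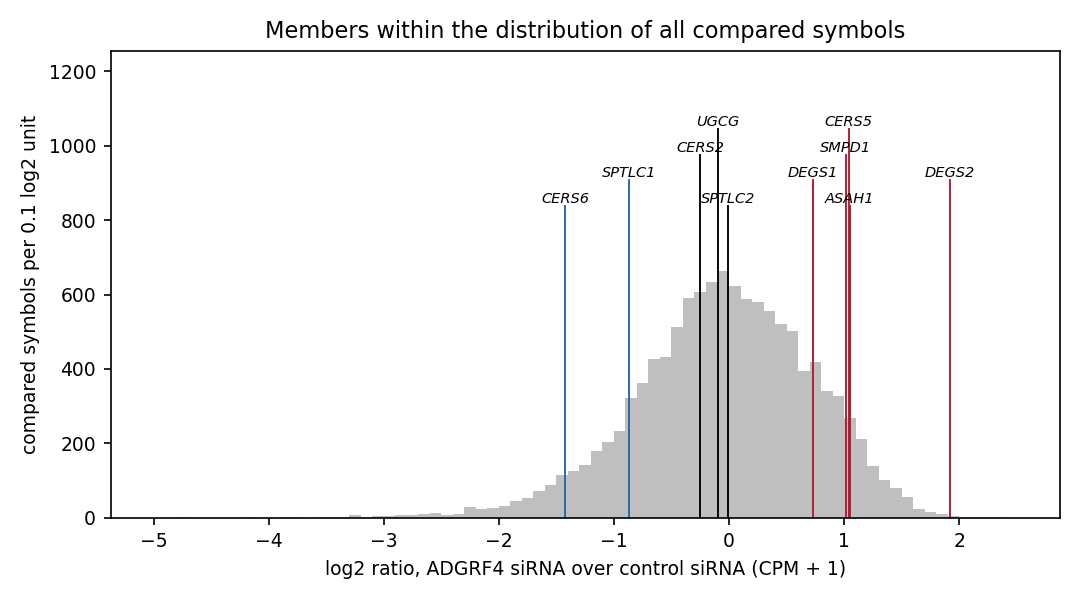
Histogram of the log2 ratios (ADGRF4 siRNA over control siRNA, CPM + 1) of all 11771 compared symbols in steps of 0.1, with a line for each of the 10 genes (red at least 1.5-fold higher, blue at least 1.5-fold lower, black between). DEGS2 at 1.92 lies in the upper tail, whereas ASAH1, CERS5 and SMPD1 at 1.02 to 1.05 lie on the upper shoulder among many other symbols.

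Ratios in these libraries followed the base composition of the 3' end, and the genes differed in it. In GENCODE 29, the final 300 bases of each gene's longest transcript had a GC content of 57.7% for SMPD1 and 54.3% for DEGS2, but 29% for DEGS1, 30.3% for SPTLC1, 30.7% for CERS6 and 26.0% for UGCG, against a median of 40.3% over 11139 compared symbols with a value. The median log2 ratio of symbols with like GC content was 0.72 for SMPD1 and 0.49 for DEGS2, and between -0.35 and -0.31 for DEGS1, SPTLC1, CERS6 and UGCG. After centring on these medians, SMPD1 stood at 0.30 and SPTLC1 at -0.56 on the log2 scale, both within 1.5-fold. DEGS2 (1.43), DEGS1 (1.06) and CERS6 (-1.12) stayed past 1.5-fold in their direction. That left 4 of the 10 genes higher and 1 lower by 1.5-fold, where 15.2% of all centred symbols were higher and 19.1% lower.

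For CERS5 and ASAH1 the result of centring depended on which transcript was taken as the 3' end. Their longest transcripts are not protein-coding, with 49.0% GC for CERS5 and 50.7% for ASAH1, and the last 300 bases of their longest protein-coding transcripts hold 36.3% and 32.7%. The log2 ratio of CERS5 was 1.04 before centring, 0.89 when centred with the longest transcript and 1.29 with the longest coding one. That of ASAH1 was 1.05, 0.90 and 1.35 in the same order. Both genes were past 1.5-fold higher on all 3 scales. With coding transcripts 4 of the 10 genes were again higher and 1 lower, against 15% and 18.9% of all symbols. Whether base composition had a part in the ratios of SMPD1 and SPTLC1 was not tested.

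**Figure D3:**
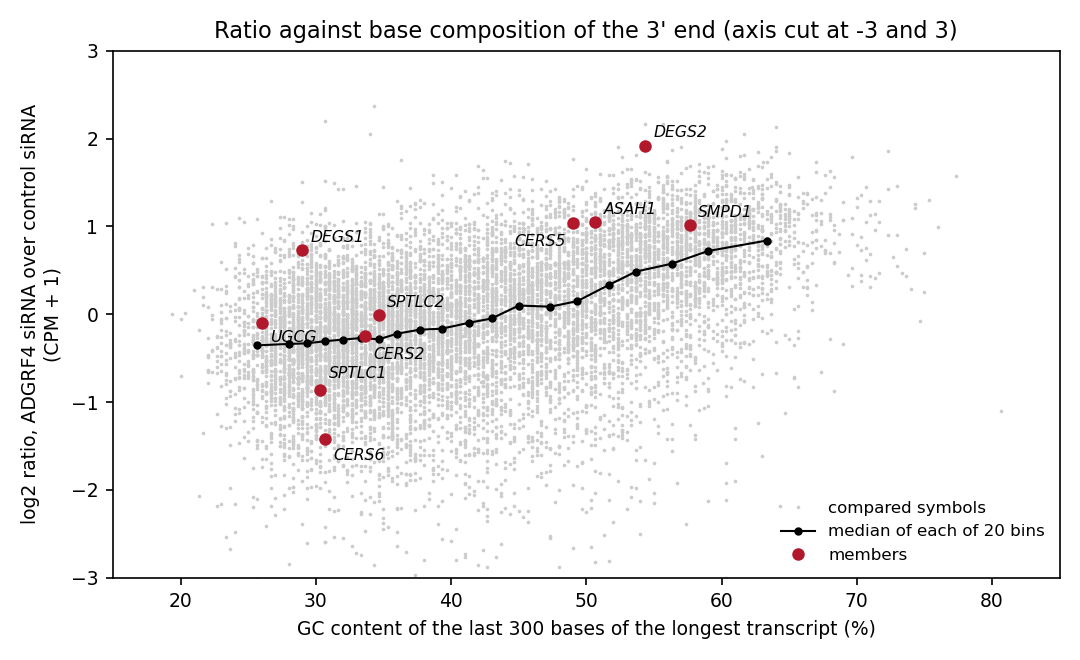
Log2 ratio (ADGRF4 siRNA over control siRNA, CPM + 1) against the GC content of each longest transcript's final 300 bases, for compared symbols (grey), the medians of 20 bins (black line) and the 10 genes (red). SMPD1 at 57.7% GC lies 0.30 above the median of its bin, and its GC content borders the next lower bin, with a median of 0.58. DEGS1 at 29% GC and DEGS2 at 54.3% lie further above the medians of their bins, and CERS6 at 30.7% lies below that of its bin.

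**Figure D4:**
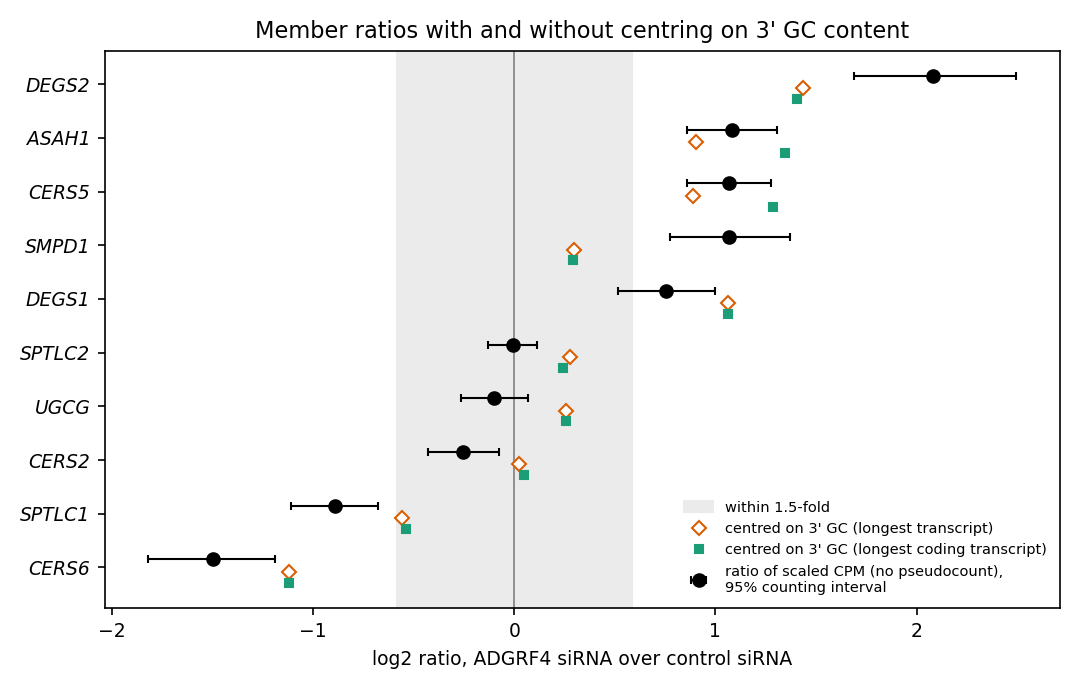
Log2 ratios of the 10 genes, ADGRF4 siRNA over control siRNA: black points show the ratio of scaled CPM with its 95% counting interval, open diamonds and green squares the log2 ratio of CPM + 1 centred on 3' GC content with the longest and the longest coding transcript. SMPD1 (0.30) and SPTLC1 (-0.56) move into the grey band of 1.5-fold after centring, whereas DEGS2 (1.43) and CERS6 (-1.12) stay outside it.

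The genes with the highest and the lowest ratio share 3' sequence with a gene on the other strand. In GENCODE 29, 280 of the last 300 bases of DEGS2 are also exon of EVL, which encodes an actin regulator of the Ena/VASP family and runs towards DEGS2. EVL had 792 counts after ADGRF4 siRNA and 382 after control siRNA, 2.43-fold higher (2.15 to 2.76), and DEGS2 was higher relative to EVL by a factor of 1.74 (1.29 to 2.38). The antisense RNA CERS6-AS1 covers 114 of the last 300 bases of CERS6 and 2999 of its 7241 exon bases. It had 50 counts after ADGRF4 siRNA and 242 after control siRNA, a ratio of 0.242 (0.175 to 0.330), so both RNAs of this locus were lower. The count of CERS6 per count of CERS6-AS1 was 2.22 and 1.52 in those libraries, a factor of 1.46 (0.994 to 2.16) that does not exclude equality. CERS2 is overlapped there by AL590133.2, over 228 bases. Elsewhere, SETDB1 covers 948 of the 4644 exon bases of CERS2 on the other strand. SETDB1 had 505 counts after ADGRF4 siRNA and 683 after control siRNA, a ratio of 0.867 (0.772 to 0.974). SPTLC1, SPTLC2, CERS5, DEGS1, UGCG, SMPD1 and ASAH1 have no exon of another gene on the other strand in their last 300 bases. The window is that of the longest transcript, which for ASAH1 is not protein-coding. Outside it, AC124242.1 covers 251 exon bases of ASAH1 on the other strand. Whether these lie in the 3' end of its coding transcript was not searched. Whether strand was used in counting is not given in the sources used here, and without it reads of such pairs cannot be told apart. Leaving out the 3 genes overlapped in that window, the higher genes numbered 4 of 7 and the lower 1 of 7. Over all compared symbols the shares were 21.1% and 22.3%. With ratios also centred on 3' GC content the higher numbered 3 and the lower 0, against 15.2% and 19.1% of all centred symbols. The genes were picked with their ratios known, so nothing is read from these counts.

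The rest of the sphingolipid pathway was described with a list of 56 other genes, of which 42 passed the minimum of 30 counts on average. Of these 42, ADGRF4 siRNA left 9 (21.4%) higher by at least 1.5-fold, 11 (26.2%) lower and 22 between, close to the 21.1% and 22.3% of all compared symbols, and their median log2 ratio was -0.11. After centring on 3' GC content 3 of the 42 were higher and 9 lower, where 15.2% of all centred symbols were higher and 19.1% lower.

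Among 7 other genes of de novo synthesis, 2 were higher, 1 lower and 4 between. Of all compared symbols, 21.1% were higher and 22.3% lower. SPTSSA, a small subunit that activates serine palmitoyltransferase, had 113 counts after ADGRF4 siRNA and 468 after control siRNA, 3.53-fold lower (2.87 to 4.38). Of the large subunits named above, SPTLC1 was also lower, but SPTLC2 had a ratio of 0.995. After centring on 3' GC the log2 ratio of SPTSSA was -1.43, whereas that of SPTLC1 was -0.56, within 1.5-fold. CERS1, a ceramide synthase for stearoyl chains, had 47 and 21 counts, a ratio of 2.63 (1.54 to 4.62), but all of its last 300 bases are shared with GDF1 on the same strand, which had 18 and 2 counts. ORMDL2, an inhibitor of serine palmitoyltransferase, had 1145 and 830 counts, 1.62-fold higher (1.48 to 1.77), and DNAJC14 on the other strand, which covers its whole 3' window, had 96 and 206 counts. Both CERS1 and ORMDL2 were within 1.5-fold after centring on 3' GC. The log2 ratio of ORMDL2 also came within 1.5-fold under total-count scaling (0.54).

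Genes of sphingomyelin synthesis, ceramide transfer and neutral sphingomyelinases gave 1 higher, 1 lower and 5 between among 7. The shares of all compared symbols were 21.1% higher and 22.3% lower. CPTP, which carries ceramide 1-phosphate between membranes, had 289 counts after ADGRF4 siRNA and 122 after control siRNA, 2.78-fold higher (2.24 to 3.46), and was within 1.5-fold after centring on 3' GC. SGMS2, a sphingomyelin synthase of the plasma membrane, had 35 and 92 counts, 2.24-fold lower (1.5 to 3.41). SGMS1, its Golgi counterpart, had 35 and 58 counts, a ratio of 0.708 (0.452 to 1.10).

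Glycosphingolipid synthesis and transfer held 3 higher and 5 lower genes among 9, where 21.1% of all compared symbols were higher and 22.3% lower. UGCG at its entry differed little. UGT8, which adds galactose to ceramide, had 22 counts after ADGRF4 siRNA and 100 after control siRNA, 3.88-fold lower (2.42 to 6.46). ST3GAL5, the sialyltransferase that makes the ganglioside GM3, had 99 and 319 counts, 2.75-fold lower (2.19 to 3.48). B4GALNT1, which extends GM3 to GM2, had 351 and 174 counts, 2.37-fold higher (1.97 to 2.85). All 3 stayed past 1.5-fold in their direction after centring on 3' GC. The group then held 3 higher and 3 lower genes, where 15.2% of all centred symbols were higher and 19.1% lower.

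Of 11 genes of glycosphingolipid breakdown, 2 were higher and 2 lower, with 7 between. The shares of all compared symbols were 21.1% higher and 22.3% lower. ARSA, which removes sulfate from sulfatide, had 148 counts after ADGRF4 siRNA and 73 after control siRNA, 2.38-fold higher (1.78 to 3.19). PSAP, the precursor of the saposins that assist these hydrolases, had 19918 and 14172 counts, 1.65-fold higher (1.61 to 1.68). The PSAP ratio came within 1.5-fold under total-count scaling (0.57), and those of ARSA and PSAP after centring on 3' GC. The higher SMPD1 and ASAH1 thus stood beside lysosomal genes on both sides of the limit.

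Of the ceramidases other than ASAH1, ACER3, an alkaline enzyme, was the one with enough counts, with 416 after ADGRF4 siRNA and 471 after control siRNA and a ratio of 1.04 (0.906 to 1.18). ASAH2, ACER1 and ACER2 had at most 1 count in either library. Among 7 genes of sphingosine and ceramide phosphates, 1 was higher and 2 lower, where 21.1% of all compared symbols were higher and 22.3% lower. SPHK2, a sphingosine kinase, had 370 and 195 counts in the ADGRF4 siRNA and control siRNA libraries, 2.23-fold higher (1.87 to 2.66), and was within 1.5-fold after centring on 3' GC. DBP on the other strand covers 284 of its last 300 bases and had 111 and 87 counts. SGPP1, a phosphatase that reverses this step, had 72 and 244 counts, 2.89-fold lower (2.21 to 3.81). ALDH3A2, which oxidises the aldehyde left by the cleavage of sphingosine 1-phosphate, had 516 and 1028 counts, 1.70-fold lower (1.53 to 1.89), but stood within 1.5-fold after centring.

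**Figure D5:**
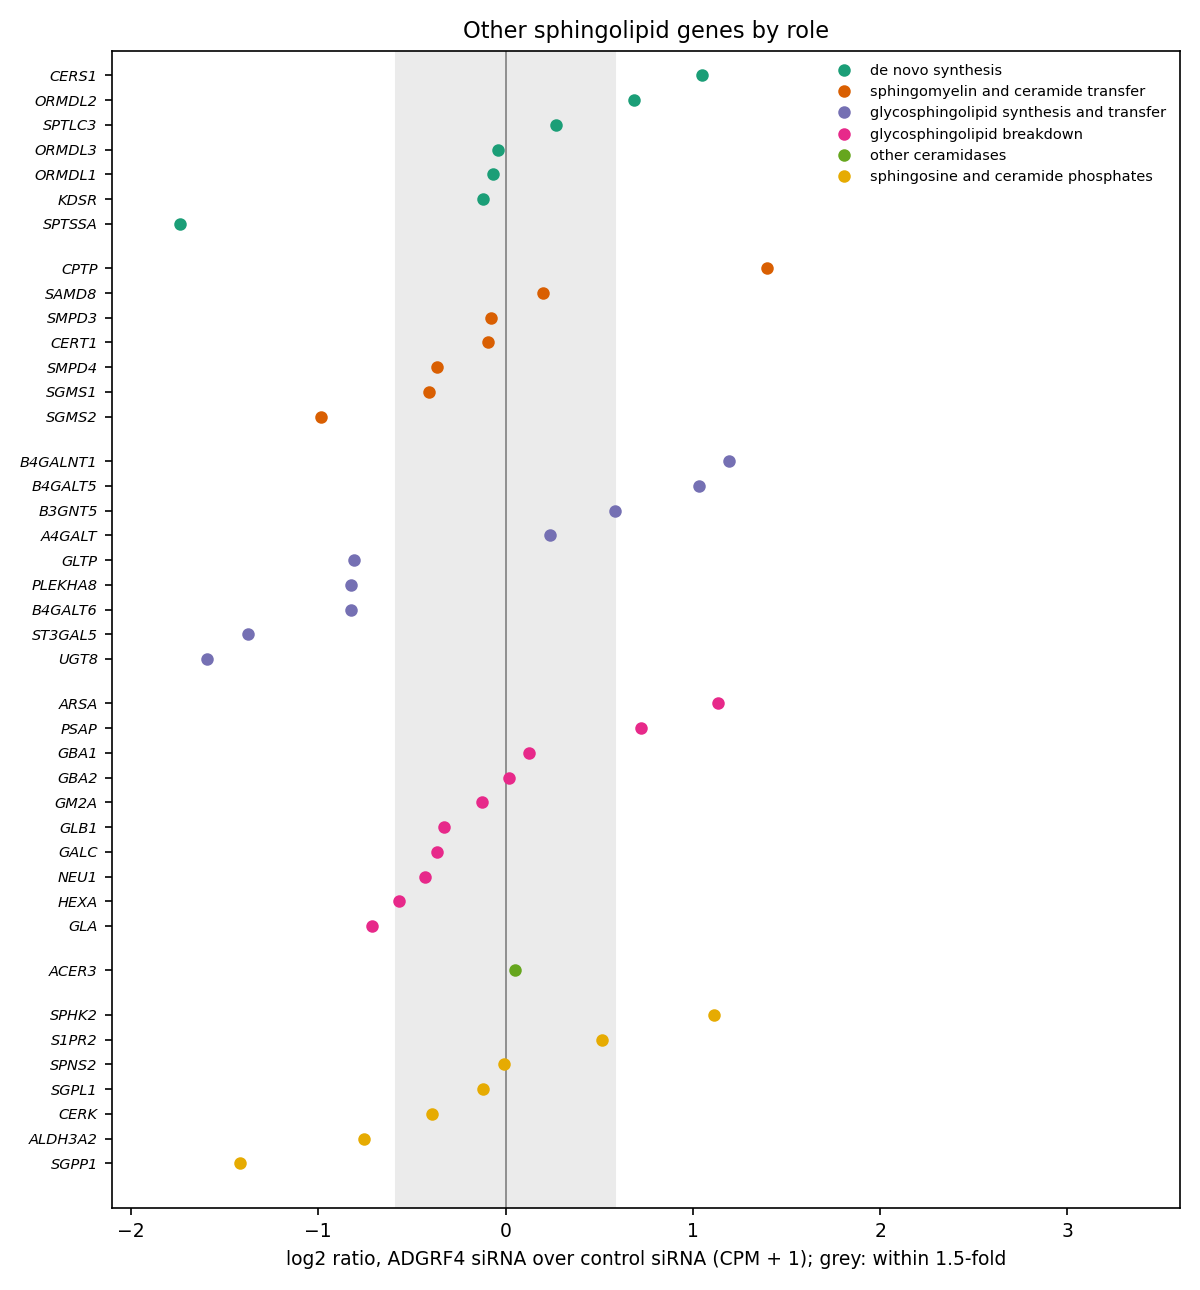
Log2 ratios (ADGRF4 siRNA over control siRNA, CPM + 1) of 41 of the 42 other sphingolipid genes with enough counts, grouped and coloured by role, with the grey band marking less than 1.5-fold. Genes lie on both sides in 5 of the 6 groups, from SPTSSA at the low end to CPTP at the high end; ACER3 stands alone in its group.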

How the data were processed

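For each library the deposited values are counts, whole numbers per gene symbol that the authors left unnormalized. Libraries were made from total RNA with the Lexogen QuantSeq kit, per the labels' protocols. Bowtie2, edgeR and build hg19 are named in the submitters' processing notes; roles, versions, annotation, strand setting and treatment of multi-mapped reads are not given there or in the labels. In all there are 25737 rows with 24462 symbols, and rows of 1 symbol were summed (286 symbols, 1.38% of ADGRF4 siRNA counts and 1.21% of control siRNA counts). None lacked a symbol.

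Library sizes were scaled by TMM in edgeR 4.0.16 (R 4.3.3). A symbol was compared when its counts averaged 30 or more across the libraries, with a pseudocount of 1 CPM for log2 ratios, which understates changes of low genes. A gene counts as higher or lower by size alone, at 1.5-fold. The members and lists were chosen with earlier results of these data known. All 10 members were named, and in each role group up to 3 compared genes with the largest absolute log2 ratio; ADGRF4, markers and overlapping genes were added. In the breakdown group 1 gene that this rule names is not reported here, though the group counts hold it. GDF1, DNAJC14 and DBP, which overlap named genes of the wider list, were named after their values were seen.

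The 3' GC content (final 300 bases) came from GENCODE 29 (GRCh38) for 94.6% of compared symbols, and ratios were centred within 20 bins. This build differs from hg19, so no coordinate was joined to the counts. Intervals cover counting error only, since the files carry no molecular identifiers. The ratio calculation was tested on simulated data. Alternatives were total-count, DESeq2 1.42.0 and upper-quartile scaling, pseudocounts of 0.1 and 5, minimums of 10, 100 and none, a 2-fold limit, centring on GC, and the largest row of each symbol; centring with coding transcripts and leaving out overlapped genes were chosen after seeing the data. Intervals and ratios were computed with scipy 1.17.1 and numpy 2.4.6 under Python 3.11.15.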

Additional observations from a re-analysis of the deposited data

How the results depend on the processing

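The 10 member ratios were recomputed under 7 alternatives of scaling, pseudocount and centring that could move them. Count minimums and the choice of row do not act on these genes. DEGS2 (1.40 to 2.07 on the log2 scale), CERS5 (0.89 to 1.29), ASAH1 (0.90 to 1.35) and DEGS1 (0.59 to 1.06) remained at least 1.5-fold higher in all 7, and CERS6 (-1.57 to -1.12) at least 1.5-fold lower. SPTLC1 and SMPD1 did so in 5 and lost the limit under both ways of centring on 3' GC content (-0.56 and -0.54 for SPTLC1, 0.30 and 0.29 for SMPD1). SPTLC2, CERS2 and UGCG stayed within 1.5-fold in all 7 and changed sign under both ways of centring. The members lower by the limit numbered 1 instead of 2 under both ways of centring, at a limit of 2-fold and without the 3 overlapped genes, and 0 when those were left out and ratios centred, which also left 3 instead of 5 higher. The members' median log2 ratio was 0.36, and 0.22 with total-count scaling or 0.73 without the overlapped genes. Of the 42 wider genes, 3 instead of 9 were higher under both ways of centring, and 7 and 5 instead of 11 were lower at a minimum of 100 counts, where 31 genes were left, and at 2-fold. Total-count scaling moved the median of all compared symbols from -0.016 to -0.16, with 16.1% at least 1.5-fold higher and 27.7% lower. The cause of these moves was not tested, other than fewer genes in a smaller set. No paired analysis was possible because each group holds 1 library. Depth limits the smallest genes, such as UGT8 with 22 counts after ADGRF4 siRNA.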
